A study of Mus musculus with 8 samples.

Results

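The genes described here are the IL-6 family cytokine signalling genes *Il6*, *Il11*, *Lif*, *Clcf1*, *Ctf1*, *Il6st*, *Lifr*, *Osmr*, *Socs3* and *Stat3*, found by their symbols as 10 of the 50578 rows of the deposited count table. RNA-seq was performed on wild-type mouse embryonic fibroblasts (MEFs), either untreated or given 10 µM of 1 compound, which was carbidopa, LY-364947 or CHIR-99021, with 2 libraries in each of the 4 groups and 8 in all. The MEFs came from midgestation C57BL/6J embryos stripped of head, tail, limbs and internal organs, were grown in serum and were used at low passage. Carbidopa is an inhibitor of aromatic L-amino acid decarboxylase, LY-364947 (spelled LY-364747 in the sample labels) is an inhibitor of the type I TGF-β receptor, and CHIR-99021 is an inhibitor of the kinase GSK3. The compounds came from candidates that a computational predictor ranked for turning fibroblasts into hepatic progenitor-like cells, and were kept by the study after the look and the expression of treated cells had been examined. The study's methods give a treatment of a week for the PCR assays, whereas the length of treatment for the sequenced cells and what the control dishes received are not given in the sources used here.

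IL-6 family cytokines are small secreted proteins that share the receptor subunit gp130, the product of *Il6st*. IL-6 and IL-11 bind a receptor of their own and then pair gp130 molecules. LIF, cardiotrophin 1 and the CLCF1 complexes use gp130 with the LIF receptor, and oncostatin M uses gp130 with the oncostatin M receptor. Receptor-bound JAK kinases then phosphorylate STAT3, which enters the nucleus and activates genes that include *Socs3*, whose product binds gp130 and JAK and shuts the signal down. In the liver the same route drives the acute-phase response, and in fibroblasts it takes part in inflammation and matrix remodelling.

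Each library held between 15039566 and 20504338 reads counted on genes, and values are given as reads or as CPM, reads scaled to a common library size with TMM factors. Of the 10 genes, 9 were tested among 15154 genes, and *Il6* was too low to be tested. A gene is called higher or lower where the adjusted p of the edgeR quasi-likelihood test is under 0.05. Sources do not say whether the 2 libraries of a group came from separate cultures, so p-values measure the spread between libraries, which may be technical. The carbidopa libraries lay furthest apart, with a chi-square per degree of freedom of 36.4 between them against 4.35 to 9.38 in the other groups. Each treated group was set against the same MEF libraries, so the 3 comparisons with MEFs share their controls.

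The labelled cell types were checked against marker genes. The 12 fibroblast markers summed to between 41200 and 41420 CPM in MEFs and between 9924 and 13690 CPM in treated cells. *Fn1* gave the largest part of this sum, with a mean of 18970 CPM in MEFs. All 12 were tested, and with each compound 10 were lower and 1 was higher. The 1 higher was *Pdgfra*, with means of 250.7 CPM in MEFs and 351, 322.9 and 390.1 under carbidopa, LY-364947 and CHIR-99021. The 10 hepatocyte markers were near absent, with at most 1.54 CPM summed in any library and none tested, and *Cyp3a11* and *Tat* were at 0 throughout. The 16 macrophage markers summed to between 1408 and 1458 CPM in MEFs, 422.6 and 432.1 CPM under carbidopa, 316 and 323.9 CPM under LY-364947, and 108.5 and 115 CPM under CHIR-99021. Of these macrophage markers 15 were tested, and 14, 14 and 15 of them were lower under carbidopa, LY-364947 and CHIR-99021. None of the 16 was at 0 in every library of a group. In bulk RNA, fewer cells of a type and less RNA per cell cannot be told apart, and the part of this change in the results below was not tested.

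Promoter sequences (250 bases before to 50 bases after the start, RefSeq, GRCm38.p6) were found for 9 of the 10 genes. They were searched on both strands for a STAT motif (TTCNNNGAA, in 8.3% of 32851 promoters of this length), an AP-1 motif (TGANTCA, in 7.81%) and an NF-κB motif (GGGA, any base, then TTTCC, in 0.411%). A match to the STAT letters was found in the *Socs3* promoter, 154 bases before the start. A match to the AP-1 letters was found in *Lif* at 228 bases before the start, in *Il6* at 249 bases before it, in 1 of the *Il11* promoters at 98 bases before it and in *Osmr* at 3 bases after it. The *Il6* promoter also held the NF-κB letters 44 bases before the start, and the promoters of *Ctf1*, *Il6st*, *Lifr* and *Stat3* held none of the letters searched in this window. Starts are those of RefSeq, whereas the gene positions given below are those of GENCODE. The windows of *Socs3*, *Osmr* and *Lifr* and of the *Il11* promoter with the AP-1 letters lie inside the GENCODE gene spans. The promoters of *Socs3* (chr11:117969317-117969616, minus strand), *Lif* (chr11:4257318-4257617, plus strand) and *Il6* (chr5:30012864-30013163, plus strand) are shown. *Socs3* was the 1 gene of the 10 called higher with every compound. Among the ligands of the 10 genes, *Lif* was called higher with 1 compound and *Il6* had the fewest reads. Capitals mark the motif matches.
Socs3: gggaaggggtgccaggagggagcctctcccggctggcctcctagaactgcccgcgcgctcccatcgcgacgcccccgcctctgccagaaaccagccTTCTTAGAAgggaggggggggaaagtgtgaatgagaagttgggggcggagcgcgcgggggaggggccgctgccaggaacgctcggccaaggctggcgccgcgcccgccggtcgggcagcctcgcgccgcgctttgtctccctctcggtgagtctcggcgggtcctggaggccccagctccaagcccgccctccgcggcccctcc
Lif: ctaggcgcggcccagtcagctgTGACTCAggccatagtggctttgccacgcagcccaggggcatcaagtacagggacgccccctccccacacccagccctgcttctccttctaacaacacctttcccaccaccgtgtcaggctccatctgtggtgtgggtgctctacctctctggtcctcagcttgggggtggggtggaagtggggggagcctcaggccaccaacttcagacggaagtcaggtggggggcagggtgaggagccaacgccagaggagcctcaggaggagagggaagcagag
Il6: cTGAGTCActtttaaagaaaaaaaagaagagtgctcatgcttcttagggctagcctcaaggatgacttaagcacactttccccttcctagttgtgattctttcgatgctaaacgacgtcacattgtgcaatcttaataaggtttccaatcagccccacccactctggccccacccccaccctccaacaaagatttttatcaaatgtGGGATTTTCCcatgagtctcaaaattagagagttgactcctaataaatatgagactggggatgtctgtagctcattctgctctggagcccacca

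With all 3 compounds, *Socs3* was higher and *Stat3*, *Lifr* and *Osmr* were lower than in MEFs. *Lif* was higher under CHIR-99021 alone among the calls, *Clcf1* was lower under carbidopa and LY-364947, *Il11* was lower under LY-364947, *Il6st* was lower under CHIR-99021, and *Ctf1* was called in no comparison. Carbidopa gave 1 gene higher and 4 lower of the 9 tested, where 37.7% of all tested genes were called (18.0% higher and 19.7% lower). LY-364947 gave 1 higher and 5 lower, where 31.0% of all tested genes were called (13.7% higher and 17.2% lower). The 5 include *Il11*, which did not reach the filter on low counts in any LY-364947 library. CHIR-99021 gave 2 higher and 4 lower, where 38.8% were called (18.7% higher and 20.1% lower). The 9 genes had a median log2 fold change of -0.47 under carbidopa, -0.40 under LY-364947 and -0.44 under CHIR-99021, beside medians of 0.037, 0.028 and 0.043 over all tested genes. Over all tested genes, 8.6% were higher and 12.8% lower with all 3 compounds and 47.3% were called with none, where of these 9 genes 1 was higher with all, 3 were lower with all and 1 was called with none.

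**Figure D1:**
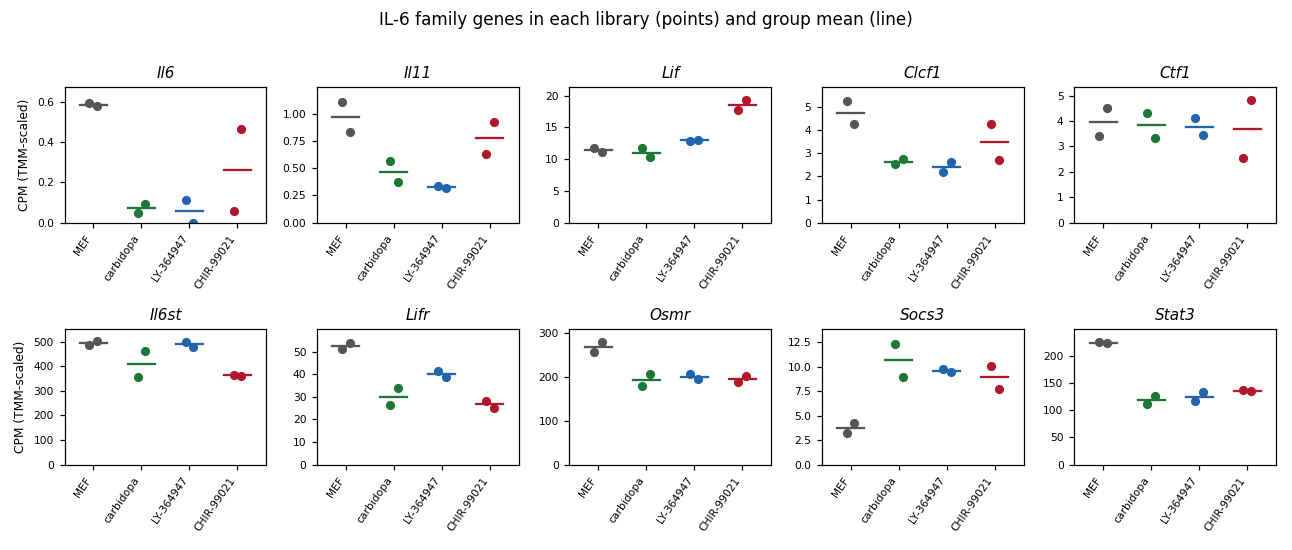
Level of each of the 10 genes in every library, in TMM-scaled CPM on linear axes that start at 0, with 1 point per library and a line at the mean of each group of 2 libraries. The *Socs3* points of treated cells lie above both MEF points, the *Stat3*, *Lifr* and *Osmr* points lie below them, and *Lif* stands higher under CHIR-99021.

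**Figure D2:**
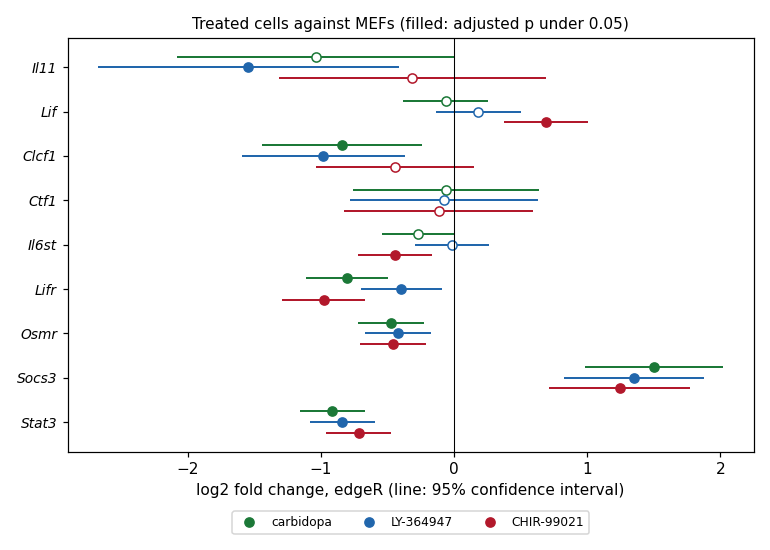
Log2 fold change of the 9 tested genes for each compound against MEFs, with 95% confidence intervals as lines and filled points where the edgeR adjusted p was under 0.05. *Socs3* lies above 0 and *Stat3*, *Lifr* and *Osmr* lie below 0 with every compound, and the intervals of *Ctf1* span 0.

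Among the ligands, *Lif* had the most reads and *Il6* the fewest. *Il6*, the founding cytokine of the family (chr5:30013114-30019981, plus strand, mm10), was counted by 8 and 9 reads in MEFs, 1 and 2 under carbidopa, 2 and 0 under LY-364947, and 1 and 8 under CHIR-99021. Both MEF libraries had more reads than any carbidopa or LY-364947 library, and 1 CHIR-99021 library, with 8, equalled the lower MEF library. On reads pooled over each group and scaled by library size, the ratio to MEFs was 0.12 under carbidopa (exact 95% interval 0.0225 to 0.414), 0.093 under LY-364947 (0.0104 to 0.392) and 0.443 under CHIR-99021 (0.174 to 1.05), intervals that cover counting error only. Without a filter on low counts, the edgeR adjusted p for *Il6* was 0.0301 under carbidopa, 0.0277 under LY-364947 and 0.5003 under CHIR-99021.

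*Lif* (chr11:4257557-4272514, plus strand) encodes leukaemia inhibitory factor, which holds mouse embryonic stem cells undifferentiated. Its level was 11.8 and 11.2 CPM in MEFs, 11.7 and 10.3 under carbidopa, 12.9 and 13.1 under LY-364947, and 17.7 and 19.3 under CHIR-99021. Both CHIR-99021 libraries were above all other libraries. *Lif* rose 1.61-fold under CHIR-99021 (log2 fold change 0.69, SE 0.14, n = 2 per group, edgeR adjusted p = 0.00298), and kept an adjusted p under 0.05 in all 14 alternative settings, up to 0.0383. Its log2 fold change was -0.06 under carbidopa (95% interval -0.37 to 0.25, edgeR adjusted p = 0.755) and 0.18 under LY-364947 (-0.13 to 0.49, edgeR adjusted p = 0.37).

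*Il11* encodes interleukin 11, a cytokine tied to fibroblast activation and scarring, and was close to the lower limit of the test. Its reads were 15 and 13 in MEFs, 12 and 8 under carbidopa, 6 and 6 under LY-364947, and 11 and 16 under CHIR-99021. It was over the filter's 0.572 CPM, required in at least 2 libraries, in 5 libraries, among them both of MEFs and both of CHIR-99021. No LY-364947 library reached this level, so *Il11* was tested under LY-364947 only through groups where it stood higher. *Il11* was 2.92-fold lower under LY-364947 (log2 fold change -1.55, SE 0.5, edgeR adjusted p = 0.0405), a call that held in 4 of 13 alternatives, with adjusted p values from 0.0217 to 0.212. It was lost without either MEF library (adjusted p = 0.212 and 0.104), without either LY-364947 library (0.161 and 0.186) and without either CHIR-99021 library (0.0669 and 0.0689). The log2 fold change was -1.04 under carbidopa (95% interval -2.08 to -0.0059, adjusted p = 0.103) and -0.31 under CHIR-99021 (-1.31 to 0.68, adjusted p = 0.616).

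*Clcf1* encodes cardiotrophin-like cytokine factor 1, which signals through the CNTF receptor. Its level was 5.28 and 4.26 CPM in MEFs, 2.54 and 2.75 under carbidopa, 2.19 and 2.61 under LY-364947, and 4.26 and 2.73 under CHIR-99021. The carbidopa and LY-364947 libraries lay below both MEF libraries, and the CHIR-99021 libraries overlapped them. *Clcf1* was 1.79-fold lower under carbidopa (log2 fold change -0.84, SE 0.27, edgeR adjusted p = 0.0302) and 1.98-fold lower under LY-364947 (-0.98, SE 0.27, adjusted p = 0.0197), and its log2 fold change under CHIR-99021 was -0.44 (95% interval -1.03 to 0.14, adjusted p = 0.21). The carbidopa call held in 10 of 14 alternatives and was lost without MEF replicate 1 or 2 (adjusted p = 0.179 and 0.0622), without carbidopa replicate 1 (0.0806) and with DESeq2 (0.0574). The LY-364947 call held in 11 of 14 and was lost when MEF replicate 1 (0.133) or either LY-364947 library (0.122 and 0.0621) was left out. Of its exon bases, 8.17% overlap another gene on the same strand, so some of its reads may have been counted for either gene.

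*Ctf1* encodes cardiotrophin 1, a ligand of the LIF receptor with gp130. Its level was 3.42 and 4.52 CPM in MEFs, 4.33 and 3.31 under carbidopa, 4.1 and 3.46 under LY-364947, and 2.53 and 4.82 under CHIR-99021. All 4 groups overlapped. The log2 fold change was -0.06 under carbidopa (95% interval -0.75 to 0.63, edgeR adjusted p = 0.893), -0.08 under LY-364947 (-0.78 to 0.62, adjusted p = 0.878) and -0.12 under CHIR-99021 (-0.82 to 0.59, adjusted p = 0.801).

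Among the receptor genes, *Il6st* stood highest, and the order of levels per kilobase of exon was *Il6st*, *Osmr* and *Lifr* in every group. In MEFs their mean levels per kilobase were 44.5, 22.1 and 4.88 CPM. *Stat3* lay between *Il6st* and *Osmr* in MEFs at 23.6 ± 0.0931 CPM per kilobase (SD, n = 2), close to *Osmr* (22.1 ± 1.41), and below *Osmr* with each compound (12.5, 13.2 and 14.3 against 15.9, 16.5 and 16.1 under carbidopa, LY-364947 and CHIR-99021). *Lif* (2.63), *Ctf1* (2.18), *Socs3* (1.29), *Clcf1* (1.25), *Il11* (0.47) and *Il6* (0.242) followed in MEFs. Of these neighbours, *Socs3* and *Clcf1* differed by less than their spread (SD 0.226 and 0.19), and *Lif* and *Ctf1* by little more than that of *Ctf1* (SD 0.0954 and 0.425). *Socs3* stood above *Lif* in mean level under carbidopa (3.68 against 2.52) and LY-364947 (3.32 against 2.98) and below it under CHIR-99021 (3.08 against 4.25).

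*Il6st* (chr13:112464070-112510086, plus strand) encodes gp130. Its level was 485.7 and 502.8 CPM in MEFs, 358.1 and 462.4 under carbidopa, 497.9 and 480.3 under LY-364947, and 365.4 and 361.7 under CHIR-99021. The LY-364947 libraries overlapped the MEF libraries, and the carbidopa libraries were far apart. *Il6st* was 1.36-fold lower under CHIR-99021 (log2 fold change -0.44, SE 0.12, edgeR adjusted p = 0.0154). The call held in 10 of 14 alternatives and was lost without MEF replicate 1 or 2 (adjusted p = 0.07005 and 0.107) and without CHIR-99021 replicate 1 or 2 (0.0857 and 0.0785), with log2 fold changes between -0.48 and -0.42 over all alternatives. With carbidopa the log2 fold change was -0.27 (95% interval -0.54 to 0.0006, adjusted p = 0.106), and without carbidopa replicate 2 it was -0.46 (adjusted p = 0.000449). With LY-364947 it was -0.02 (-0.28 to 0.25, adjusted p = 0.9404).

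*Lifr* (chr15:7090614-7197489, plus strand) encodes the LIF receptor. Its level was 51.1 and 54.01 CPM in MEFs, 26.2 and 33.9 under carbidopa, 41.3 and 38.6 under LY-364947, and 28.04 and 25.2 under CHIR-99021. All treated libraries lay below both MEF libraries, and the LY-364947 libraries lay above those of the other compounds. *Lifr* fell 1.75-fold under carbidopa (log2 fold change -0.81, SE 0.13, edgeR adjusted p = 0.00103) and 1.98-fold under CHIR-99021 (-0.98, SE 0.14, adjusted p = 0.000289), and both calls held in all 14 alternatives. With LY-364947 it was 1.32-fold lower (-0.4, SE 0.13, adjusted p = 0.0458), a call that held in 6 of 14 alternatives. This call was lost without either MEF library (adjusted p = 0.128 and 0.228), either LY-364947 library (0.129 and 0.226) or either CHIR-99021 library (0.0667 and 0.0663), with at least 10 counts required in every library (0.0505) and with the replicate number as a block (0.0591).

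*Osmr* (chr15:6813577-6874969, minus strand) encodes the oncostatin M receptor and lies 215644 bases from *Lifr* on the same chromosome. Its level was 255.9 and 280 CPM in MEFs, 178.7 and 207.2 under carbidopa, 206.1 and 194.3 under LY-364947, and 188.7 and 201.8 under CHIR-99021. All treated libraries lay below both MEF libraries, and the treated groups overlapped each other. *Osmr* was 1.39-fold lower under carbidopa (log2 fold change -0.47, SE 0.11, edgeR adjusted p = 0.00674), 1.34-fold lower under LY-364947 (-0.42, SE 0.11, adjusted p = 0.0134) and 1.37-fold lower under CHIR-99021 (-0.46, SE 0.11, adjusted p = 0.00741). Without MEF replicate 2 the 3 calls were lost (adjusted p = 0.0843, 0.144 and 0.0915, with log2 fold changes of -0.41, -0.36 and -0.4). The LY-364947 call was also lost without LY-364947 replicate 1 or 2 (0.0651 and 0.116), and the CHIR-99021 call without CHIR-99021 replicate 1 (0.0791).

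*Stat3* (chr11:100885098-100939540, minus strand) encodes the transcription factor that carries the signal of the whole family. Its level was 225 and 223.8 CPM in MEFs, 111 and 126.8 under carbidopa, 117.9 and 132.8 under LY-364947, and 137.1 and 135.6 under CHIR-99021. The MEF libraries differed by little, and all treated libraries lay well below them. *Stat3* fell 1.89-fold under carbidopa (log2 fold change -0.92, SE 0.11, edgeR adjusted p = 8.38e-05), 1.79-fold under LY-364947 (-0.84, SE 0.11, adjusted p = 0.000158) and 1.65-fold under CHIR-99021 (-0.72, SE 0.11, adjusted p = 0.000426). The 3 calls held in all 14 alternatives, with log2 fold changes between -1.01 and -0.7 and adjusted p values up to 0.00754.

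*Socs3* (chr11:117966079-117970047, minus strand) encodes the feedback inhibitor of gp130 signalling, and its promoter is the 1 above with the STAT letters. Its level was 3.27 and 4.19 CPM in MEFs, 12.3 and 8.96 under carbidopa, 9.77 and 9.43 under LY-364947, and 10.1 and 7.72 under CHIR-99021. The lowest treated library stood above the highest MEF library, and the treated groups overlapped. *Socs3* rose 2.83-fold under carbidopa (log2 fold change 1.5, SE 0.23, edgeR adjusted p = 0.000588), 2.56-fold under LY-364947 (1.35, SE 0.23, adjusted p = 0.00133) and 2.37-fold under CHIR-99021 (1.25, SE 0.23, adjusted p = 0.00208). The 3 calls held in all 14 alternatives, with log2 fold changes between 1.05 and 1.72 and adjusted p values up to 0.0263. *Socs3* and *Stat3* moved in opposite directions with each compound.

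At the same dose, CHIR-99021 differed from carbidopa at 1 of the 9 tested genes (1 higher, 0 lower), where 14.7% of all genes were called (6.62% higher and 8.08% lower). It differed from LY-364947 at 3 (1 higher, 2 lower), where 14.1% were called (6.45% higher and 7.69% lower). LY-364947 against carbidopa gave 0 of the 9 at an adjusted p under 0.05 by edgeR and by DESeq2, where 0.0132% of all genes were called by edgeR. In that pair *Lifr* (log2 fold change 0.41, edgeR adjusted p = 0.519) was the 1 gene of the 9 under 0.05 before adjustment. The 3 compounds were compared in 3 pairs, and the p-values were adjusted over all tested genes within each pair.

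**Figure D3:**
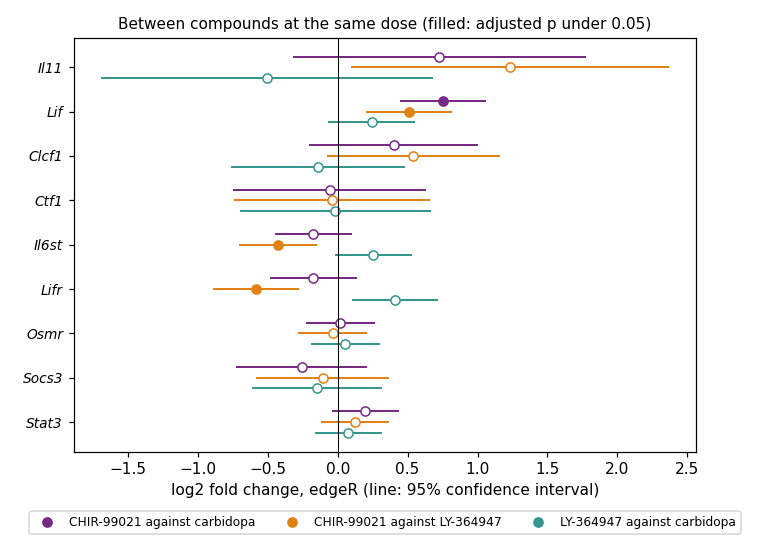
Log2 fold change of the 9 tested genes between compounds at 10 µM, with 95% confidence intervals as lines and filled points where the edgeR adjusted p was under 0.05. *Lif* is filled for CHIR-99021 against both other compounds, *Il6st* and *Lifr* are filled for CHIR-99021 against LY-364947, and no point is filled for LY-364947 against carbidopa.

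*Lif* was 1.68-fold higher under CHIR-99021 than under carbidopa (log2 fold change 0.75, SE 0.14, edgeR adjusted p = 0.00497), a call that held in all 14 alternatives. Against LY-364947 it was 1.42-fold higher (0.51, SE 0.13, adjusted p = 0.031), a call that held in 7 of 14. This call was lost without any MEF, CHIR-99021 or LY-364947 library, with adjusted p values from 0.0618 to 0.2003, and was lost with DESeq2 (0.0777).

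The shared receptor subunit and the LIF receptor were lower under CHIR-99021 than under LY-364947. *Il6st* differed by 1.35-fold (log2 fold change -0.43, SE 0.12, edgeR adjusted p = 0.041), and *Lifr* by 1.5-fold (-0.59, SE 0.14, adjusted p = 0.0181). The *Il6st* call held in 8 of 14 alternatives and was lost without any MEF, CHIR-99021 or LY-364947 library (adjusted p = 0.0925 to 0.245), and the *Lifr* call held in 10 of 14 and was lost without any CHIR-99021 or LY-364947 library (0.0715 to 0.151). Without carbidopa replicate 1, CHIR-99021 was also below carbidopa at *Il6st* (adjusted p = 0.00839) and *Lifr* (0.0495). Without carbidopa replicate 2, LY-364947 was above carbidopa at *Il6st* (adjusted p = 0.00269) and *Lifr* (0.00407).

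For *Stat3* and *Socs3* no pair of compounds passed the threshold, although without carbidopa replicate 2 *Stat3* was higher under CHIR-99021 than under carbidopa (log2 fold change 0.3, edgeR adjusted p = 0.029). The log2 fold change of *Stat3* was 0.2 for CHIR-99021 against carbidopa (95% interval -0.04 to 0.43), 0.12 for CHIR-99021 against LY-364947 (-0.11 to 0.36) and 0.08 for LY-364947 against carbidopa (-0.16 to 0.31). That of *Socs3* was -0.26 (-0.72 to 0.2), -0.11 (-0.57 to 0.36) and -0.15 (-0.61 to 0.31) in the same order. For *Osmr* the intervals ran from -0.22 to 0.26, from -0.28 to 0.2 and from -0.19 to 0.29.

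Other ligand and receptor genes of the family formed a list of 11, of which 7 were tested. Of these 7, 5 were over the filter's 0.572 CPM in every library, and *Il31ra* and *Ebi3*, over it in both libraries of the MEF group alone, are described apart from them by their reads. *Cntfr* and *Il27ra* were higher and *Il6ra* was lower with all 3 compounds, *Cntf* was higher under CHIR-99021, and *Il11ra1* was called with none. Of all tested genes 37.7%, 31.0% and 38.8% were called for carbidopa, LY-364947 and CHIR-99021, and 8.6% were higher and 12.8% lower with all 3.

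**Figure D4:**
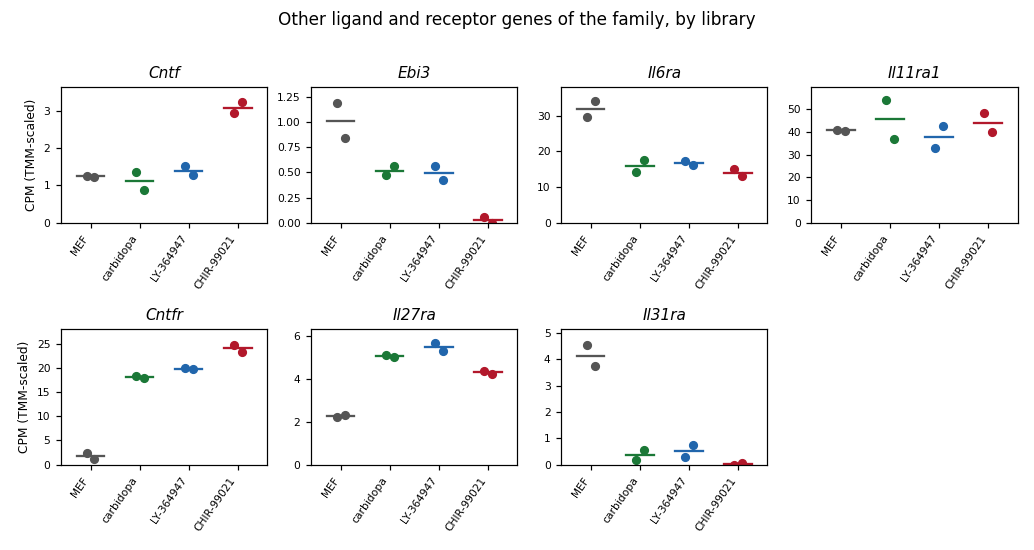
Level of the 7 tested genes among the other ligands and receptors of the family in every library, in TMM-scaled CPM on linear axes that start at 0, with 1 point per library and a line at each group mean. *Cntfr* and *Il27ra* stand higher in treated cells, *Il6ra* and *Il31ra* stand lower, and *Ebi3* and *Il31ra* are at or near 0 under CHIR-99021.

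*Cntfr*, the binding subunit of the receptor for CNTF and CLCF1, had 2.45 and 1.1 CPM in MEFs, 18.4 and 17.9 under carbidopa, 19.98 and 19.8 under LY-364947, and 24.8 and 23.3 under CHIR-99021. Every treated library was several-fold above both MEF libraries. *Cntfr* rose 10.4-fold under carbidopa (log2 fold change 3.38, SE 0.24, edgeR adjusted p = 2.79e-06), 11.4-fold under LY-364947 (3.51, SE 0.24, adjusted p = 2.16e-06) and 13.8-fold under CHIR-99021 (3.78, SE 0.24, adjusted p = 1.11e-06). The MEF libraries differed from each other, and over all alternatives its log2 fold change ranged from 2.88 to 4.45, always with an adjusted p under 0.05.

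*Il6ra*, the binding subunit of the IL-6 receptor, had 29.8 and 34.1 CPM in MEFs and between 13 and 17.6 CPM in the 6 treated libraries. It was 2.01-fold lower under carbidopa (log2 fold change -1.01, SE 0.15, edgeR adjusted p = 0.000427), 1.9-fold lower under LY-364947 (-0.93, SE 0.15, adjusted p = 0.000823) and 2.29-fold lower under CHIR-99021 (-1.19, SE 0.15, adjusted p = 0.000146). *Il27ra*, the binding subunit of the IL-27 receptor, went the other way, from 2.23 and 2.32 CPM in MEFs to between 4.24 and 5.67 CPM in treated libraries. Its rise was 2.23-fold under carbidopa (adjusted p = 0.0015), 2.4-fold under LY-364947 (adjusted p = 0.000938) and 1.89-fold under CHIR-99021 (adjusted p = 0.00625), by the same edgeR test. All calls of *Il6ra* and *Il27ra* against MEFs held in all 14 alternatives.

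*Il31ra* and *Ebi3* were each over the filter's level in 4 libraries, both of MEFs, 1 of carbidopa and 1 of LY-364947. Since only the MEF group passed in full, their reads are given as a description. *Il31ra*, a subunit of the IL-31 receptor that lies 9811 bases from *Il6st*, had 61 and 58 reads in MEFs, 4 and 12 under carbidopa, 5 and 14 under LY-364947, and 0 and 1 under CHIR-99021. On pooled reads its ratio to MEFs was 0.0912 under carbidopa (exact 95% interval 0.0505 to 0.154), 0.126 under LY-364947 (0.0734 to 0.206) and 0.00703 under CHIR-99021 (0.000177 to 0.0399). These intervals cover counting error only, and the reads differed more within the carbidopa and the LY-364947 pair of libraries than within the MEF pair. *Ebi3*, a subunit of IL-27, had 16 and 13 reads in MEFs, 10 and 12 under carbidopa, 10 and 8 under LY-364947, and 1 and 0 under CHIR-99021, a pooled ratio to MEFs of 0.0288 under CHIR-99021 (0.000706 to 0.174, counting error only). The macrophage markers were likewise lowest under CHIR-99021 (108.5 and 115 CPM summed, against 1408 and 1458 in MEFs), and their part in these results was not tested.

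*Cntf* encodes ciliary neurotrophic factor, and 78.9% of its exon bases overlap *Zfp91* on the same strand, so its count is uncertain. It had 1.26 and 1.23 CPM in MEFs, 1.37 and 0.886 under carbidopa, 1.52 and 1.28 under LY-364947, and 2.94 and 3.25 under CHIR-99021, and was called 2.48-fold higher under CHIR-99021 (edgeR adjusted p = 0.00836, lost without MEF replicate 1 at 0.0511 and without MEF replicate 2 at 0.0658). *Il11ra1*, the IL-11 receptor gene, shares 35.9% of its 75-base words with near-identical copies and was called with no compound. Its level was 41 and 40.5 CPM in MEFs, 54.2 and 37.04 under carbidopa, 32.8 and 42.6 under LY-364947, and 48.4 and 39.8 under CHIR-99021. *Osm*, which lies 16530 bases from *Lif*, had 2 reads over the MEF libraries and 0 in treated libraries. *Ctf2* had 3 to 7 reads a group, *Il27* had 1 read in all and *Il31* had 0 in every library, at or near the floor of 3 reads that a count of 0 allows.

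Of 24 genes for JAK kinases, other STATs and negative regulators, 23 were tested. With carbidopa 1 was higher and 6 were lower (30.4% called), under LY-364947 2 were higher and 5 lower (30.4%), and under CHIR-99021 3 were higher and 6 lower (39.1%), shares near those of all tested genes. With all 3 compounds, 5 were lower (*Jak2*, *Stat2*, *Stat5b*, *Ptpn6* and *Pias2*) and none were higher, by the same edgeR test, which is 21.7% and 0% of the list beside 12.8% and 8.6% of all tested genes. *Pias2*, a SUMO ligase that binds STATs, is named for this count and was chosen after its values were seen, and its calls held in 12, 10 and 11 of 14 alternatives for carbidopa, LY-364947 and CHIR-99021.

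*Jak2*, a kinase bound to gp130, had 72.3 and 74.3 CPM in MEFs and between 39.6 and 47.3 CPM in treated libraries. It was 1.6-fold lower under carbidopa (edgeR adjusted p = 0.000759), 1.61-fold lower under LY-364947 (adjusted p = 0.000816) and 1.71-fold lower under CHIR-99021 (adjusted p = 0.000317). *Stat2*, a transducer of type I interferon signals, had 96 and 96.4 CPM in MEFs and between 50.6 and 72.3 CPM in treated libraries. *Ptpn6* encodes the phosphatase SHP-1, known from blood cells, and had 7.81 and 7.03 CPM in MEFs, 3.77 and 2.57 under carbidopa, 2.41 and 3.36 under LY-364947, and 1.27 and 0.812 under CHIR-99021, in the order of the macrophage marker sums except between carbidopa and LY-364947, whose libraries overlapped. It was 2.34-fold, 2.56-fold and 7.09-fold lower under carbidopa, LY-364947 and CHIR-99021 (edgeR adjusted p = 0.00516, 0.00347 and 6.14e-05), and the part of the macrophage markers in this was not tested. *Stat5b* was 1.47-fold, 1.4-fold and 1.33-fold lower in the same order (edgeR adjusted p = 0.00298, 0.00717 and 0.0145), with the LY-364947 call lost without MEF replicate 2 (0.0714) or either LY-364947 library (0.0576 and 0.0592) and the CHIR-99021 call lost without any MEF or CHIR-99021 library (0.0673 to 0.105).

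*Socs2*, a brake on growth hormone signals and a relative of *Socs3*, had 13.01 and 14.5 CPM in MEFs, 20.6 and 17.5 under carbidopa, 22.7 and 20.2 under LY-364947, and 14.3 and 13.9 under CHIR-99021. It was 1.38-fold higher under carbidopa (edgeR adjusted p = 0.0243) and 1.56-fold higher under LY-364947 (adjusted p = 0.00579), and its log2 fold change under CHIR-99021 was 0.03 (SE 0.14, adjusted p = 0.874). The carbidopa call held in 9 of 14 alternatives and was lost without MEF replicate 1 (0.1604), MEF replicate 2 (0.0739) or carbidopa replicate 1 (0.0783), with DESeq2 (0.0676) and with the compared groups alone (0.0723). The LY-364947 call was lost without MEF replicate 1 (0.0658) or LY-364947 replicate 1 (0.0557). Between compounds *Socs2* was lower under CHIR-99021 than under LY-364947 (log2 fold change -0.61, SE 0.14, edgeR adjusted p = 0.0168), lost without any CHIR-99021 or LY-364947 library (0.0535 to 0.154). *Stat6*, the transducer of IL-4 and IL-13, was 1.52-fold higher under CHIR-99021 (edgeR adjusted p = 0.00111) and 1.26-fold higher under LY-364947 (adjusted p = 0.0331, held in 8 of 14 alternatives).

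A list of 22 genes known as STAT3 targets had 19 tested. The list was chosen with earlier results of these data known, so its shares of called genes are a description. With carbidopa 5 were higher and 9 lower (73.7% called), under LY-364947 5 were higher and 8 lower (68.4%), and under CHIR-99021 8 were higher and 8 lower (84.2%), beside 37.7%, 31.0% and 38.8% of all tested genes. The list's median log2 fold change was -0.17 under carbidopa, -0.24 under LY-364947 and 0.24 under CHIR-99021. With all 3 compounds 5 were higher (*Pim1*, *Bcl2l1*, *Vegfa*, *Bcl3* and *Il4ra*) and 6 were lower (*Timp1*, *Bcl6*, *Fos*, *Cebpd*, *Hif1a* and *Icam1*), where 8.6% and 12.8% of all tested genes were. *Bcl3*, *Il4ra*, *Bcl6*, *Fos*, *Cebpd*, *Hif1a* and *Icam1* are named for these counts after their values were seen. Among the calls behind these counts, those of *Bcl3* (held in 13, 7 and 9 of 14 alternatives for carbidopa, LY-364947 and CHIR-99021), *Icam1* (11, 10 and 14), *Cebpd* (12, 14 and 14), *Fos* (14, 12 and 14) and *Il4ra* (13, 14 and 14) were lost in some alternatives. Many of these genes answer to other signals as well.

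**Figure D5:**
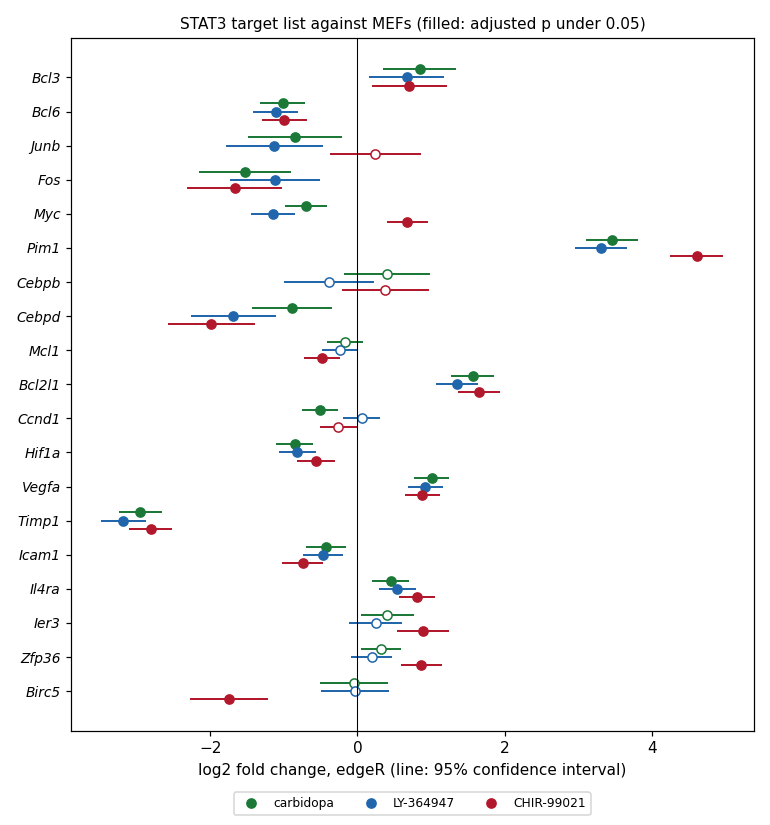
Log2 fold change of the 19 tested genes of the STAT3 target list for each compound against MEFs, with 95% confidence intervals as lines and filled points where the edgeR adjusted p was under 0.05. *Pim1* lies farthest to the right and *Timp1* farthest to the left with every compound, and *Myc* lies to the right of 0 under CHIR-99021 and to the left of it under carbidopa and LY-364947.

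*Pim1*, a kinase that promotes survival and growth, had 7.36 and 5.87 CPM in MEFs, 80.03 and 64.3 under carbidopa, 64.6 and 65.6 under LY-364947, and 165 and 155.9 under CHIR-99021. The CHIR-99021 libraries stood highest and the MEF libraries lowest, with no overlap between them and the rest. *Pim1* rose 10.9-fold under carbidopa (log2 fold change 3.45, SE 0.15, edgeR adjusted p = 8.94e-08), 9.87-fold under LY-364947 (3.3, SE 0.15, adjusted p = 1.22e-07) and 24.3-fold under CHIR-99021 (4.6, SE 0.16, adjusted p = 2.07e-08). Between compounds it was 2.22-fold higher under CHIR-99021 than under carbidopa (adjusted p = 0.000304) and 2.46-fold higher than under LY-364947 (adjusted p = 0.000168), in edgeR.

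*Bcl2l1*, which encodes the survival protein BCL-XL, had 74.4 and 71.4 CPM in MEFs and between 185.1 and 240.4 CPM in treated libraries. It rose 2.95-fold under carbidopa (edgeR adjusted p = 5.5e-06), 2.55-fold under LY-364947 (adjusted p = 1.58e-05) and 3.14-fold under CHIR-99021 (adjusted p = 3.66e-06). *Vegfa*, the angiogenic growth factor, had 49.1 and 49.4 CPM in MEFs and between 87.8 and 104.6 CPM in treated libraries. *Fos*, an AP-1 subunit, had 4.09 and 6 CPM in MEFs and between 1.51 and 2.47 CPM in treated libraries. *Cebpd*, an acute-phase transcription factor, had 16.2 and 15.6 CPM in MEFs, 11 and 6.2 under carbidopa, 5 and 4.9 under LY-364947, and 4.49 and 3.54 under CHIR-99021. *Timp1*, an inhibitor of matrix metalloproteases, had 202.4 and 192.2 CPM in MEFs and between 20.9 and 30.2 CPM in treated libraries. It fell 7.71-fold under carbidopa (edgeR adjusted p = 7.2e-08), 9.04-fold under LY-364947 (adjusted p = 4.83e-08) and 7.01-fold under CHIR-99021 (adjusted p = 9.65e-08).

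*Myc*, the growth-promoting transcription factor, had 36.4 and 33 CPM in MEFs, 22.8 and 19.8 under carbidopa, 15.2 and 16.1 under LY-364947, and 58.2 and 52.5 under CHIR-99021. The CHIR-99021 libraries lay above the MEF libraries and those of the other compounds below them. *Myc* fell 1.63-fold under carbidopa (log2 fold change -0.7, SE 0.12, edgeR adjusted p = 0.00134) and 2.21-fold under LY-364947 (-1.15, SE 0.13, adjusted p = 5.93e-05), and rose 1.6-fold under CHIR-99021 (0.67, SE 0.12, adjusted p = 0.00142). The difference itself was 2.6-fold for CHIR-99021 against carbidopa (edgeR adjusted p = 8.63e-05) and 3.53-fold for CHIR-99021 against LY-364947 (adjusted p = 1.97e-05). All calls of *Pim1*, *Bcl2l1*, *Vegfa*, *Timp1* and *Myc* against MEFs held in all 14 alternatives. Some genes of the list were called under CHIR-99021 and not under the other compounds. *Birc5*, which encodes the mitotic protein survivin, had 8.18 and 6.58 CPM in MEFs, 8.05 and 6.2 under carbidopa, 7.47 and 6.92 under LY-364947, and 2.02 and 2.38 under CHIR-99021, and was lower under CHIR-99021 than in MEFs (3.34-fold, edgeR adjusted p = 0.000207), than under carbidopa (3.24-fold, adjusted p = 0.000919) and than under LY-364947 (3.27-fold, adjusted p = 0.000946). *Zfp36*, an RNA-binding protein that speeds the decay of cytokine transcripts, had 21.3 and 20.5 CPM in MEFs, 24.1 and 27.9 under carbidopa, 24.4 and 23.3 under LY-364947, and 37.1 and 39 under CHIR-99021. It was higher under CHIR-99021 than in MEFs (1.82-fold, edgeR adjusted p = 0.000243), than under carbidopa (1.47-fold, adjusted p = 0.0101, held in 11 of 14 alternatives) and than under LY-364947 (1.6-fold, adjusted p = 0.00382). Between compounds, 7 genes of the list differed for CHIR-99021 against carbidopa (5 higher, 2 lower) and 6 for CHIR-99021 against LY-364947 (5 higher, 1 lower), which is 36.8% and 31.6% of the list beside 14.7% and 14.1% of all tested genes. Over all alternatives these counts ran from 3 (without CHIR-99021 replicate 1) to 11 (without carbidopa replicate 2) and from 4 to 14 (without either carbidopa library). LY-364947 against carbidopa gave 0 by edgeR, with 4 under 0.05 before adjustment, 1 by DESeq2 and 7 by edgeR without carbidopa replicate 2.

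The genes whose log2 CPM followed each member most closely over the 8 libraries were named as a description. The points share libraries and a split between MEFs and treated cells, so many genes reach a high value. For *Stat3* they were *Itgb3* (Pearson r = 0.996) and *Myo7a* (0.995), with 1100 of 15153 other genes above 0.9, and for *Osmr* they were *Tial1* (0.996) and *Efr3a* (0.995), with 1015 above 0.9. For *Socs3* they were *Iqck* (0.996) and *Zfp949* (0.992), with 800 genes above 0.9, and for *Lifr* they were *Rapgef5* (0.989) and *Prkg1* (0.987), with 369. For *Il6st* they were *Dnmt3a* (0.986) and *Ptprd* (0.983), for *Clcf1* they were *Trim46* (0.996) and *Parp3* (0.985), and for *Il11* they were *Clptm1l* (0.985) and *Eif2s1* (0.978). *Lif* was followed most closely by *Cntf* (0.979), with 58 genes above 0.9. The count of *Cntf* is uncertain, since 78.9% of its exon bases overlap *Zfp91* on the same strand. *Ctf1*, which was called in no comparison, had 2 genes above 0.9, *Isca2* (0.951) and *Bora* (0.914).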

How the data were processed

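RNA-seq libraries of untreated MEFs and of MEFs given 1 of 3 compounds were compared, 2 per group. The authors mapped reads to mm10 with STAR 2.4.2a, counted them per gene with featureCounts and deposited raw counts. The annotation and the strand setting are not given in the sources used here, and the labels and the study's methods name different library kits. Groups were taken from the sample titles. Of 50578 identifiers 50354 (99.6%) were found in GENCODE M21, which gave gene positions. Counts passing edgeR's filterByExpr (15154 genes) were fitted with group as the only factor over all 8 libraries, using edgeR 4.0.16 (TMM, quasi-likelihood test, two-sided, Benjamini-Hochberg over all tested genes, threshold 0.05, R 4.3.3). The biological coefficient of variation was 11%. The scripts were tested on simulated data. CPM values use TMM-scaled library sizes, and intervals cover 95%. With 15039566 to 20504338 counts per library, genes that did not reach about 10 counts in at least 2 libraries were not tested. The members and the gene lists were chosen with earlier results of these data known. All members, all other family genes, up to 4 called genes of each pathway list and comparison with the smallest p, and the 2 genes most correlated with each member were named, except that 1 gene of the family list, left out of its counts, and 1 correlated gene are not reported here. Alternatives were DESeq2 1.42.0, RLE size factors, other filters, the compared groups alone, the replicate number as a block and leaving out each library. Promoters came from RefSeq GRCm38.p6.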

Additional observations from a re-analysis of the deposited data

How the results depend on the processing

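Leaving out 1 library at a time moved the number of the 9 tested genes called from 5 to between 3 and 6 for carbidopa against MEFs, from 6 to between 2 and 6 for LY-364947 against MEFs, from 6 to between 4 and 6 for CHIR-99021 against MEFs, from 1 to between 1 and 3 for CHIR-99021 against carbidopa, from 3 to between 0 and 3 for CHIR-99021 against LY-364947, and from 0 to between 0 and 2 for LY-364947 against carbidopa. The 6 other alternatives kept each of these counts within 1.5 times, and no called log2 fold change of the members or listed pathway genes changed sign in any alternative. Calls of *Socs3* and *Stat3* held against MEFs in every alternative run.

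The replicate numbers did not pair the samples (correlations of deviations from -0.161 to 0.128). With the number as a block, 4 genes instead of 6 were called for LY-364947 against MEFs (*Il11* adjusted p = 0.0603, *Lifr* 0.0591), and the other 5 counts stayed at 5, 6, 1, 3 and 0.

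Counts over all genes moved most for LY-364947 against carbidopa, from 2 to 16 with DESeq2 (12 higher, 4 lower), 329 without a filter and 0 with the compared groups alone, and to between 2 and 3816 without 1 library. With the compared groups alone they were 1027 instead of 2227 for CHIR-99021 against carbidopa and 3673 instead of 2143 for CHIR-99021 against LY-364947. Without 1 library they ran from 3142 to 7996 for carbidopa, 2841 to 6519 for LY-364947 and 3433 to 7800 for CHIR-99021 against MEFs. The STAT3 target list ran from 10 to 16, 10 to 15 and 14 to 17 called genes for carbidopa, LY-364947 and CHIR-99021 against MEFs over all alternatives, and the JAK and STAT list from 4 to 11, 3 to 13 and 4 to 10. The causes were not tested. At 3 reads or fewer over a group, as for *Il6* under carbidopa and LY-364947, depth sets the precision.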

Other observations

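Hepatic acute-phase genes, the textbook liver targets of IL-6, were mostly silent in these cells. Of 14 genes listed, 2 were tested, and *Saa1*, *Fgg* and *Hamp* had 0 reads in every library. *Serpina3n*, a secreted protease inhibitor, had 54.4 and 54.3 CPM in MEFs, 0.753 and 1.63 under carbidopa, 1.01 and 1.01 under LY-364947, and 0.518 and 0.464 under CHIR-99021. It fell 45.2-fold under carbidopa, 53.4-fold under LY-364947 and 109.1-fold under CHIR-99021 (edgeR adjusted p = 7.38e-08, 7.85e-08 and 5.13e-08). The CHIR-99021 fold rests on 9 and 8 reads, and no CHIR-99021 library was over the filter's 0.572 CPM, so the size of this fall is imprecise. *A2m*, a protease-trapping plasma protein, had 9.22 and 9.16 CPM in MEFs and between 1.22 and 3.71 CPM in treated libraries. It fell 6.73-fold under carbidopa, 4.72-fold under LY-364947 and 2.99-fold under CHIR-99021 (edgeR adjusted p = 1.73e-05, 6.78e-05 and 0.000496).

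Of 17 genes of the IL-1, TNF and NF-κB route, which is known to switch on *Il6*, 15 were tested. This list too was chosen with earlier results of these data known, so its shares are a description. With carbidopa 4 were higher and 4 lower, under LY-364947 3 were higher and 4 lower, and under CHIR-99021 2 were higher and 5 lower, by edgeR. That is 53.3%, 46.7% and 46.7% of those tested, beside 37.7%, 31.0% and 38.8% of all tested genes. The carbidopa count includes *Il1a*, which passed the filter through the carbidopa and LY-364947 libraries alone. It had 3 and 4 reads in MEFs and 13 and 24 under carbidopa. Its call was lost with DESeq2 (adjusted p = 0.136) and in edgeR with the compared groups alone (adjusted p = 0.0585). The *Il1a* call was also lost without either MEF library, without carbidopa replicate 2 and without any CHIR-99021 or LY-364947 library. The carbidopa and LY-364947 counts include *Nfkbiz*. The *Nfkbiz* calls were lost with DESeq2 (adjusted p = 0.1296 and 0.0777) and with edgeR without a filter on low counts (0.0798 and 0.06496). Both were also lost without either MEF library. The carbidopa call was further lost in edgeR with the compared groups alone (adjusted p = 0.1095) and with the replicate number as a block (0.0507). It was lost as well without any CHIR-99021 or LY-364947 library, and the LY-364947 call without either LY-364947 library. *Il1r1*, the IL-1 receptor, had 50.9 and 56.5 CPM in MEFs, 11.5 and 15.7 under carbidopa, 15.1 and 14.01 under LY-364947, and 5.47 and 6.44 under CHIR-99021. It fell 3.94-fold, 3.69-fold and 9.01-fold (edgeR adjusted p = 6.09e-06, 9.12e-06 and 3.75e-07), and was lower under CHIR-99021 than under carbidopa (2.28-fold, edgeR adjusted p = 0.00186) and LY-364947 (2.44-fold, adjusted p = 0.00119). *Tlr4*, the endotoxin receptor, had 43.1 and 47.3 CPM in MEFs, 103.3 and 131.7 under carbidopa, 150.6 and 138.9 under LY-364947, and 65.8 and 74.9 under CHIR-99021, and rose 2.6-fold, 3.2-fold and 1.56-fold (edgeR adjusted p = 2.58e-05, 6.6e-06 and 0.00413). *Nfkbia*, the inhibitor of NF-κB, rose 2.59-fold, 2.21-fold and 1.79-fold in the same order (edgeR adjusted p = 0.000376, 0.00141 and 0.00775, the last lost without MEF replicate 2 at 0.0678 or CHIR-99021 replicate 1 at 0.0667). *Il1rn*, the IL-1 receptor antagonist, fell 5.92-fold, 6.2-fold and 4.89-fold (edgeR adjusted p = 1.37e-05, 1.42e-05 and 3.14e-05), and *Relb*, an NF-κB subunit, fell 1.89-fold, 2.57-fold and 1.96-fold (adjusted p = 0.00496, 0.000572 and 0.00356).

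The 6 endothelial markers summed to between 23.2 and 25.3 CPM in MEFs and between 11.6 and 16.1 CPM in treated libraries. *Kdr* carried most of the treated sums, with means of 10.35 CPM in MEFs and 9.51, 9.64 and 12.8 under carbidopa, LY-364947 and CHIR-99021. Mean *Vwf* was 6.06, 0.444, 0.244 and 0.491 CPM in the same order, *Emcn* 5.29, 0.704, 1.23 and 0.868, and *Tek* 2.21, 1.29, 1.83 and 0.693. *Pecam1* and *Cdh5* had 0 to 8 reads over each group. The 6 epithelial markers summed to between 3.1 and 4.16 CPM in MEFs and between 9.82 and 21.4 CPM in treated libraries. *Krt19* carried most of each sum, with a mean of 2.76 CPM in MEFs, 15.3 under carbidopa, 9.38 under LY-364947 and 7.05 under CHIR-99021 (n = 2 each). Mean *Krt18* was 0.509 CPM in MEFs, 1.125 under carbidopa, 0.735 under LY-364947 and 2.69 under CHIR-99021. Mean *Cldn4* was 0.139, 0.469, 0.359 and 1.88 CPM in the same order, with 4 reads in all in MEFs. *Epcam*, *Cdh1* and *Krt8* had 0 to 9 reads over each group.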
